A study of Mus musculus with 20 samples.

Results

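The DNA sites of p65 were compared between wild-type (WT) mouse macrophages given lipopolysaccharide (LPS) for 30 min and untreated WT control macrophages. The members were the peaks of the 2 deposited lists, 36030 at LPS 30 min and 9643 in the control, together 45673 of the 258959 peaks in the 12 lists of the series. A site was called gained where a peak at LPS 30 min overlapped no control peak by 1 bp or more, lost where a control peak overlapped no peak at LPS 30 min, and shared otherwise. By this rule 31666 sites were gained, 5281 were lost and 4362 pairs of peaks were shared. The signal of a peak is the authors' Normalized Tag Count, called the tag count here, which is the number of tags in the peak scaled to a library of 10000000 tags.

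The study mapped p65 and SOCS1 by CUT&RUN, in which an antibody-tethered nuclease releases the DNA around a bound protein. The cells were macrophages grown from bone marrow for several days with the growth factor MCSF, WT (written C65BL6 in the design text) or a knockout (KO) that the design text names NOS1, while the title concerns SOCS1. The LPS 30 min group was WT, antibody p65, 100 ng/mL LPS; the control group was WT, antibody p65, with no LPS. Each group is 1 library, so no difference between them was tested, intervals cover counting error only, and variation between animals or cultures cannot be estimated.

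p65, also called RelA, is the main activating subunit of NF-κB. In resting macrophages it is held in the cytoplasm by IκB proteins, and LPS, sensed by TLR4, leads to their breakdown, so that p65 enters the nucleus and binds short κB motifs near inflammatory genes. Among its best known targets are its own inhibitors, which end the response, and genes for cytokines, chemokines and survival factors.

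The library at LPS 30 min held 13.3 M tags and that of the control 7.69 M. Peaks contained 13.2% of the tags at LPS 30 min and 2.12% in the control. Peaks were 254 bp wide at LPS 30 min and 359 bp wide in the control, since the authors' caller set the width per library. The caller needed 10 tags at LPS 30 min and 9 in the control, and a site that was not called is not shown to be unbound. A site bound strongly in some cells and one bound weakly in all cells cannot be told apart.

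Promoter stretches that carry a κB match at or beside a gained peak are shown first, as DNA at or near these sites. These are the 5 promoters with the highest gained tag counts among those whose 250 bases before the gene start hold a match to the κB consensus, which is the usual 10-base pattern and was searched on both strands. Each stretch is 120 bases of the gene's own strand from RefSeq (GRCm38.p6, the mm10 build), 5′ to 3′, with the κB matches in capitals.
Tnip1 promoter: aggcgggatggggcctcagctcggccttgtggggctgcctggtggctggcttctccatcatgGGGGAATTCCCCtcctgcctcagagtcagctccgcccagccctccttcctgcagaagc
Ebi3 promoter: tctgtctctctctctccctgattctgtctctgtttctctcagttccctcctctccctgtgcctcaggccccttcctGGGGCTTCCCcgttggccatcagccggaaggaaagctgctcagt
Rack1 promoter: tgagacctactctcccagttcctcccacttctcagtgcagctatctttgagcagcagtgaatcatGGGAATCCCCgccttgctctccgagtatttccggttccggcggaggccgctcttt
Casp4 promoter: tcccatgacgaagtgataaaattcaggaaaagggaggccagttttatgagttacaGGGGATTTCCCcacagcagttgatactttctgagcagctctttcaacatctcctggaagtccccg
Ccrl2 promoter: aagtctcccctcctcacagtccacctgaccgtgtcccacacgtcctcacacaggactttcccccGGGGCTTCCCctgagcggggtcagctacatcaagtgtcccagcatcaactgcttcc
Tnip1 (ABIN1, a partner of the A20 deubiquitinase that restrains NF-κB) is shown at chr11:54962941-54963060 on the minus strand. Its gained peak at chr11:54962993-54963247 had a tag count of 393 at LPS 30 min. Ebi3 (a subunit of secreted interleukins) is shown at chr17:55952503-55952622 on the plus strand, beside a gained peak of 226.3. Rack1 (a ribosome-bound scaffold protein) is shown at chr11:48800240-48800359, plus strand, beside a gained peak of 223.7. Casp4 (caspase-11, the sensor of cytosolic LPS) is shown at chr9:5308701-5308820, plus strand, beside a gained peak of 203.1. Ccrl2 (a chemerin-binding atypical chemokine receptor) is shown at chr9:111057519-111057638, minus strand, beside a gained peak of 179. No peak was called at any of the 5 in the control. The nearest κB match lay 126 bp from the centre of the peak at Tnip1, 132 bp at Ebi3, 142 bp at Rack1, 184 bp at Ccrl2 and 270 bp at Casp4, and none lay wholly inside its peak. At Rack1, Casp4 and Ccrl2 the match lay wholly outside the peak, and at Casp4 and Ccrl2 so did the whole stretch shown.

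Over the promoter windows of RefSeq, from 250 bases before to 50 after the start, 3971 of 32851 were overlapped by a gained peak, 1060 by a shared peak at LPS 30 min, 636 by a lost control peak and 27030 by no peak. The κB consensus was found in 7.41% of the 998 gained promoters with the highest tag counts, 51.8 or more (95% exact interval 5.87 to 9.22), in 5.57% of all gained promoters (4.87 to 6.32) and in 8.11% of shared ones. It was found in 5.35% of lost promoters (3.73 to 7.39), in 4.17% of promoters with no peak and in 4.51% of all. A narrower form, GGGNNTTTCC on either strand, which partly overlaps the consensus, was found in 3.81% of those 998 promoters (2.71 to 5.19), in 2.24% of gained ones, in 1.57% of lost ones (0.757 to 2.87) and in 1.63% of all. In the 199 highest gained promoters, with tag counts of 115.8 or more, the consensus was found in 6.03% (3.15 to 10.3) and the narrower form in 2.51% (0.821 to 5.77), and both intervals include the share of all promoters. So the interval lay above the share of all promoters in the 998 highest by both patterns, but not in the 199 highest. Most promoters of either set had no match in the window, which says nothing of the DNA outside it.

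Patterns of general promoters differed more. The GC box GGGCGG was found in 62.2% of gained promoters and in 35.7% of all, and the ETS pattern CCGGAAGT in 9.85% of gained promoters and in 3.89% of all. Lost promoters had the GC box in 60.4% and the ETS pattern in 12.4%. NRF1's core GCGCATGC was in 6.04% of gained promoters and in 2.71% of all, and the cyclic AMP element TGACGTCA was in 3.68% of gained promoters and in 1.79% of all. Other patterns ran the other way: TATAAA was in 6.47% of gained promoters and in 13.6% of all, and the AP-1 pattern TGANTCA was in 5.74% of gained promoters and in 7.81% of all. Mean GC content was 59.5% in gained promoters, 59.8% in lost ones and 53.8% in all, and the part of base composition in these shares was not tested.

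Matches were also counted by their distance from the centre of the gained peak, inside the promoter windows. Over all 3971 gained promoters the κB consensus had 0.186 matches per kb inside the peak (0.147 to 0.232) and 0.252 per kb beside it (0.213 to 0.296), and these intervals overlap. In the 998 highest gained promoters there were 18 matches to the κB consensus in 107 kb within 127 bp of the peak centre, which is inside the peak, or 0.168 per kb (exact interval 0.0997 to 0.266). There were 60 in 147 kb at 127 to 300 bp from the centre, or 0.408 per kb (0.311 to 0.525). The narrower form gave 5 matches inside, 0.0467 per kb, and 33 beside, 0.224 per kb. In the same 998 promoters the GC box was likewise denser beside the peak, with 2.60 per kb inside and 5.51 per kb beside the peak, so κB matches were not alone in this offset.

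Most p65 peaks at LPS 30 min stood where the control had none, and most of the control peaks were not called at LPS 30 min. The gained sites made up 87.9% of the list at LPS 30 min (exact interval 87.5 to 88.2), and the lost sites 54.8% of the control list (53.8 to 55.8). Shared sites were the higher ones in both libraries: the median tag count was 40.5 at shared and 21.8 at gained sites at LPS 30 min, and 20.8 at shared and 16.9 at lost sites in the control. Few control peaks of either class were high: 3 of 5281 lost and 21 of 4362 shared ones reached a tag count of 100. At LPS 30 min 1532 of 31666 gained and 560 of 4364 shared peaks did. When only peaks with a caller score of 20 or more were kept in both lists, 22583 sites were gained, 778 were shared and 289 were lost. That score is not scaled to depth, so the same cut was stricter in the control library, which held fewer tags.

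**Figure D1:**
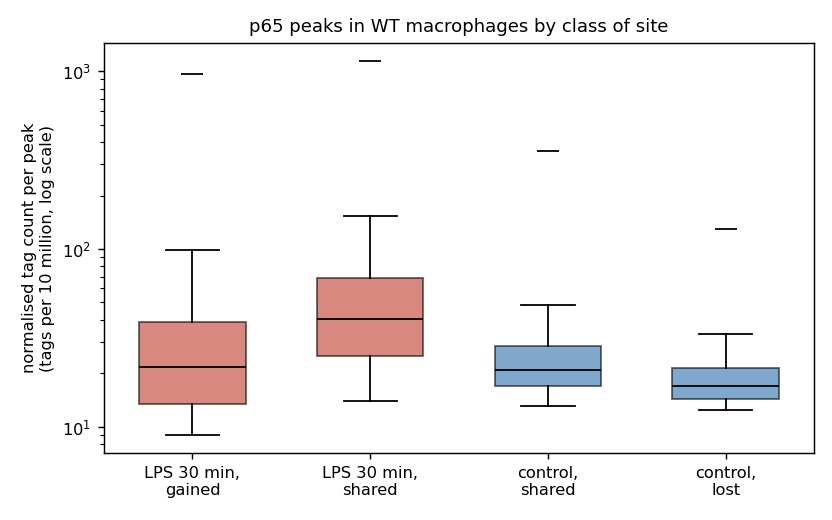
Tag count per peak (tags per 10000000, log axis) at LPS 30 min in gained and shared sites and in the control in shared and lost sites. Boxes span the quartiles with the median, whiskers the 5th to 95th percentile, and dashes mark the highest peak, 961.6 at gained and 129.4 at lost sites.

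Gained sites were spread over genes, which held 57.1% of them, and intergenic DNA. Within 1 kb of a RefSeq gene start lay 21.0% of gained sites, 35% of shared sites at LPS 30 min and 20.6% of lost sites; starts of 17492 of the 21887 protein-coding genes were in the table used. The median distance to a start was 13330 bp at gained, 6886.5 bp at shared and 12155 bp at lost sites. Of the gained sites, 47.2% had a protein-coding gene end within 10 kb. The highest sites were farther out: in 4 equal groups by tag count the share within 1 kb of a start was 11.2%, 19.8%, 26.7% and 26.1% from low to high, but among the 100 highest it was 11.2%, and 35 of those 100 had a gene end within 10 kb.

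The highest gained site, at chr10:19078005-19078259, lay 62722 bp from Tnfaip3, the gene of A20, a deubiquitinase that shuts off NF-κB signalling. It had a tag count of 961.6 at LPS 30 min, from 1281 tags against 10.5 IgG tags, and no control peak. The same site had 708.7 in WT cells at LPS 8 h and 1372.5 in KO cells at LPS 30 min. Within 10 kb of Tnfaip3 itself the highest gained peak had a tag count of 74.7, and the control had none.

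Of the 20 highest gained sites, 4 had a protein-coding gene end within 10 kb. Here and below, a gene end or nearest gene is that of a protein-coding gene, and other genes can lie nearer. Mefv (pyrin, an inflammasome sensor) had a site of 591.1 at chr16:3723157-3723411, 5073 bp away. Nod2 (an intracellular sensor of bacterial cell wall) had a site of 535.6 at chr8:88650236-88650490, inside the gene, and its control peak elsewhere had 26. Fndc7 had 450, inside the gene, and Tnip1 had 393, 164 bp from the gene. Of the other 16, which had no gene end within 10 kb and are named by the nearest gene, several lay inside long genes, such as Cyfip1 (510.1), St7 (505.6), Adam17 (468.4, the protease that sheds TNF from the cell surface), Ifitm10 (449.6), Mitf (433.1, a transcription factor of myeloid and pigment cells), Jazf1 (400.1) and Fnip1 (395.2). A site of 560 lay 313013 bp from the nearest protein-coding gene, Actbl2, and 38154 bp from the nearest RefSeq gene start. One of the 20, 11363 bp from Ppp1r1c with 471 at LPS 30 min, was not called in KO cells at LPS 30 min, where the other 19 were. In the KO control, without LPS, 10 of the 20 were called, among them those by Mefv (83.1) and in Fndc7 (66.0). The sites at Nod2 and Tnip1 were not.

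**Figure D2:**
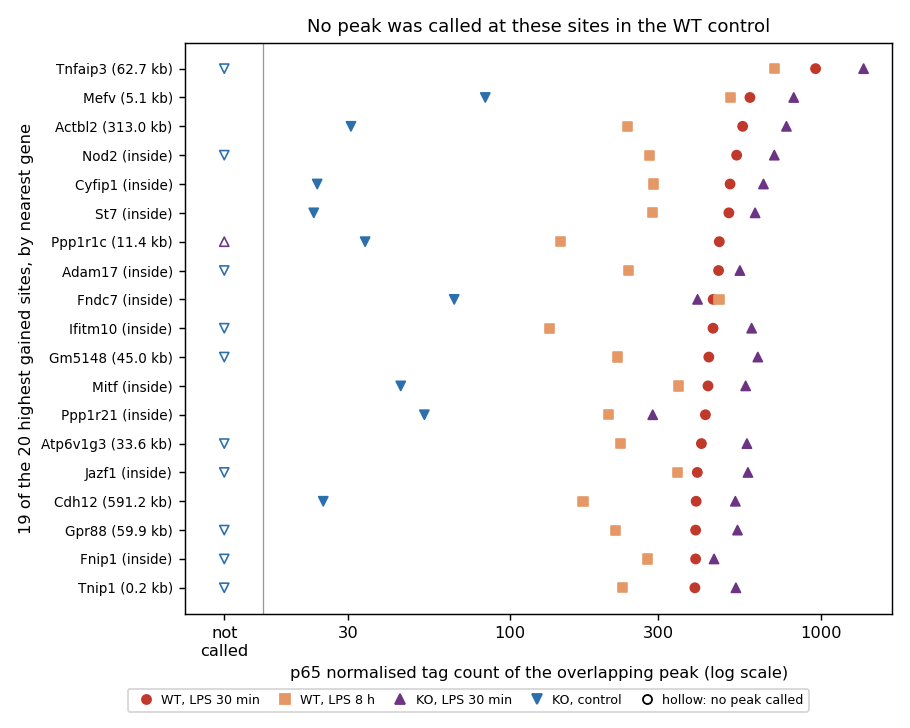
Tag count (log axis) of the p65 peak at 19 of the 20 highest gained sites in 4 p65 lists, with hollow marks on the left where no peak was called. All sites drawn were also called in WT cells at LPS 8 h, and all but the one near Ppp1r1c in KO cells at LPS 30 min. Sites are named by the nearest protein-coding gene and its distance.

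The next 9 sites with a gene end within 10 kb, named in order after the values were seen, were those at Tgif1 (391.1), Trappc3 with Map7d1 (362.2), Kdm6b (353.9, a histone demethylase induced by LPS), Cd14 with Tmco6 and Ndufa2 (338.9, CD14 being the co-receptor of TLR4), Il10rb (338.2, a subunit of the receptor of interleukin-10), Zfp36 with Med29 and Plekhg2 (326.5, ZFP36 being a protein that destabilises cytokine mRNAs), Ago1 with Ago3 (323.5, Argonaute proteins of small RNA silencing), Stk40 with Lsm10 (319.4) and Nr1d1 with Thra (319). Immune genes and genes of other functions were both among them. At Tgif1 the gained peak began at 70852426 on chromosome 17 and a lost control peak of 59.8 ended at 70852398, so 1 region entered both classes. Such neighbours were not rare among lost sites: 821 of 5281 lost sites, 15.5%, had the centre of a gained peak within 500 bp, as had 894 gained sites, 2.82%, a control peak.

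Gained sites were found again in other libraries to different extents, and more often the higher they were. A p65 peak in KO cells at LPS 30 min overlapped 62.6% of gained, 77.2% of shared and 21.4% of lost sites. A p65 peak in WT cells at LPS 8 h overlapped 43.4% of gained, 67.3% of shared and 20.1% of lost sites. In the KO control these shares were 11.1%, 28.1% and 11.1%. The KO control, also without LPS, had a p65 peak at 46 of the 100 highest gained sites. From the lowest to the highest of the 4 groups of gained sites by tag count, the share called in KO cells at LPS 30 min was 33.0%, 57.0%, 73.6% and 86.6%, and of the 100 highest it was 98. Peaks of the SOCS1 antibody in WT cells at LPS 30 min overlapped 26.6% of gained sites, and those in the WT control 9.57%. In KO cells these shares were 27.6% at LPS 30 min and 20.6% in the control. The SOCS1 and p65 lists of 1 genotype and treatment were called against the same IgG library.

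**Figure D3:**
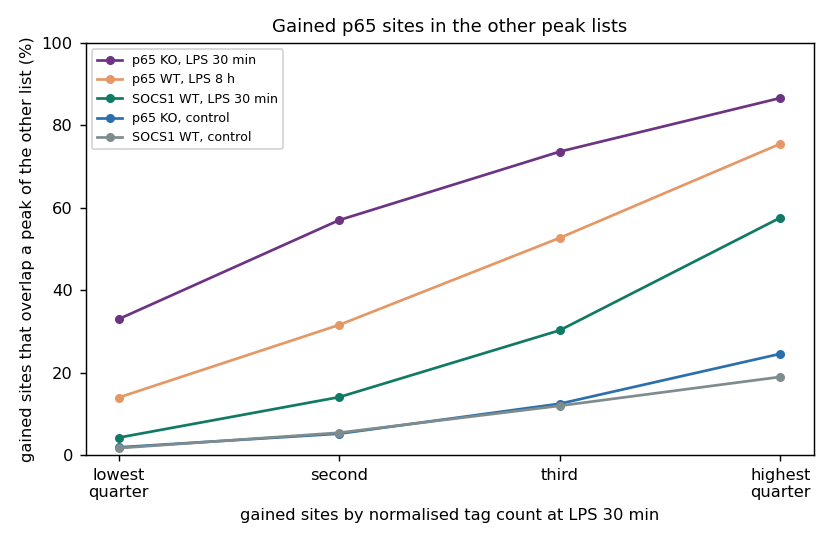
Percent of gained sites that overlap a peak of another list, in 4 equal groups of gained sites by tag count at LPS 30 min. Every line climbs from the lowest to the highest group, for p65 in KO cells at LPS 30 min to 86.6% and for p65 in the KO control to 24.6%.

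At shared sites the tag count at LPS 30 min was mostly above that of the control. Of 4362 pairs, 3707 were higher at LPS 30 min and 642 lower, and the median log2 ratio of LPS 30 min over control was 0.88 (quartiles 0.30 and 1.46). At least 2-fold higher were 1950 pairs (44.7%) and at least 2-fold lower 38 (0.871%). Measured against the median ratio, 547 pairs were at least 2-fold above and 524 at least 2-fold below it. Since control peaks were 1.41 times as wide, the median per bp of width was 1.38 on the log2 scale, and by the authors' fold over IgG it was 0.29. Per bp of width, 2923 pairs were at least 2-fold higher at LPS 30 min and 8 at least 2-fold lower.

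The highest ratio was at chr7:75667340-75667594, inside Akap13, an anchor protein of protein kinase A. It had a tag count of 754.4 at LPS 30 min, against 18.2 in the control, 41.5-fold (24.6 to 76.1). A site 11721 bp from Mcl1, a survival factor of the Bcl-2 family, had 383.2 at LPS 30 min, against 15.6 in the control, 24.6-fold (13.9 to 47.8). Txlnb had a site 7773 bp away with 754.8 at LPS 30 min, against 46.8 in the control, and Sowahc had 319, against 23.4. Among the 10 highest were also sites by Pilra, an inhibitory receptor of myeloid cells, with Zcwpw1 (373.8 at LPS 30 min, against 28.6 in the control), inside Gramd1b (350.2, against 19.5) and 78398 bp from Bcl2l11, the death factor Bim (209.1, against 15). At 3 of the 10 the paired peaks overlapped by less than 0.5 of the width at LPS 30 min, namely by 45 bp of 254 in Akap13, 60 bp by Mcl1 and 42 bp by Pilra, so their ratios compare largely different DNA. By the authors' fold over IgG the log2 ratio of the 10 sites ranged between 0.48 at Sowahc and 6.4 at Txlnb, with 1.9 in Akap13 and 1.07 by Pilra.

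The next sites with a gene end within 10 kb, again named in order after the values were seen, were of mixed function. Ttpa (a vitamin E transfer protein) with Ggh had 152.8 at LPS 30 min, against 12.4 in the control. Nfkbiz (IκBζ, a nuclear IκB that activates secondary response genes) with Nxpe3 had 308.1 at LPS 30 min, against 25.4 in the control, 12.1-fold (7.56 to 19.6). Mmp14 (a membrane-bound matrix protease) had 153.1, against 13 in the control. Il23a (a subunit of interleukin-23) with Stat2 and Pan2 had 204.6, against 18.2 in the control. Clcn7 (a lysosomal chloride transporter) had 162.9, against 15 in the control, and Klhl25 had 385.8, against 36.4. The site with the highest sum of both libraries, at chr11:43385278-43385532, had 1137.6 at LPS 30 min, against 125.5 in the control, 9.06-fold (7.34 to 11.2), and lay 10944 bp from the hairpin of Mir146, the source of miR-146a. Next by sum, beside the Txlnb and Akap13 sites, came Mllt6 (564.1 at LPS 30 min, against 77.4 in the control) and a site inside Igf2r (485.3, against 137.8).

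A few shared sites ran the other way. The site at chr2:33207056-33207310 lay inside Ralgps1, 8768 bp from an end of Angptl2, which encodes a secreted angiopoietin-like protein. It had 88.6 at LPS 30 min, against 356.9 in the control, 0.248-fold (0.199 to 0.310), and the control value was the highest of its list. Preb with Tcf23 had 78.8 at LPS 30 min, against 268.5 in the control, 0.293-fold (0.230 to 0.374). Bcl2, the founding survival factor of its family, had 23.6, against 91.7 in the control, and Dnmt1 (the maintenance DNA methyltransferase) with S1pr2 had 42, against 118.3. Asap1 (8.63, against 31.2) and Slc36a3 with Slc36a2 (12.4, against 39) were lower too, but Asap1 was higher by fold over IgG, with a log2 ratio of 1.64. Sites inside Extl3, Poc1b and Msh3 and 33947 bp from Nf1 completed the 10 lowest.

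**Figure D4:**
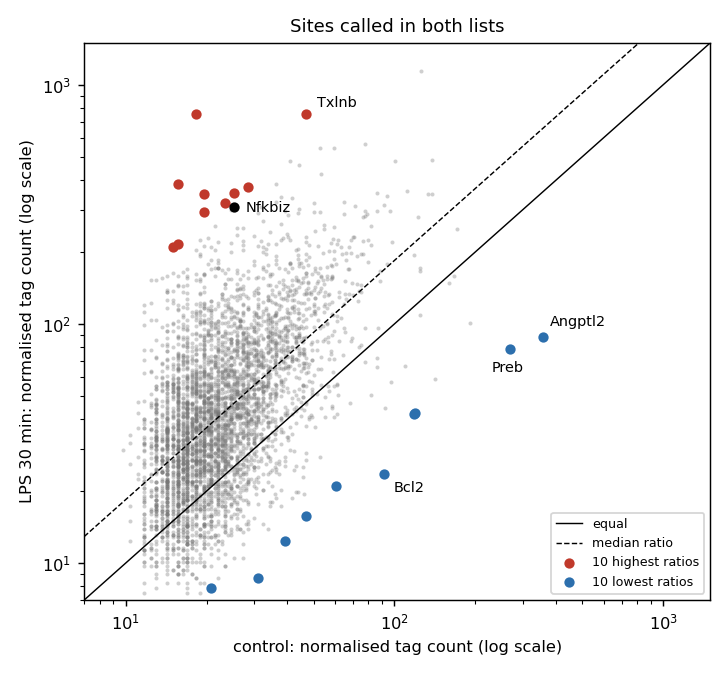
Tag count at LPS 30 min against the control at 4362 shared sites (log axes), with lines for equal counts and for the median ratio. Most points lie above the line of equal counts, the 10 highest ratios are red, the 10 lowest blue, and Nfkbiz black.

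Lost sites were named by the same ranking. The highest, at chr1:171849070-171849428 inside Cd84, a receptor of the SLAM family on leukocytes, had 129.4 in the control and no peak at LPS 30 min, but 64 in KO cells at LPS 30 min. Carm1 (an arginine methyltransferase that acts as a coactivator) with AB124611 had 97.5 in the control, Kctd21 90.4, Sars (the seryl-tRNA synthetase) 83.2, Grk2 (a kinase of G-protein-coupled receptors) 76.1 and Chkb with Cpt1b 73.5. The other 6 of the 12 highest had no gene end within 10 kb. Of the 12 lost sites, 5 were called in KO cells at LPS 30 min, 8 in WT cells at LPS 8 h and 4 in both, so several sites absent from the list at LPS 30 min were called in other libraries of LPS-treated cells.

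By genes, 11970 of 21887 protein-coding genes had a gained site within 10 kb of a gene end, 54.7%, which is the background for every family below. At least 1 peak was within 10 kb of 58.9% of genes at LPS 30 min and of 28.4% in the control. Newly called, with a peak at LPS 30 min and none in the control, were 7124 of the 15678 genes without a control peak (45.4%), and no longer called were 437 of the 6209 genes with one (7.04%). Where a gene had a gained site, the highest had a median tag count of 31.9 over all such genes, the background for heights. A site within 10 kb of several genes counted for each of them. In the families below, a value at LPS 30 min set against one in the control is the highest peak within 10 kb of the gene in each library, which need not be the same site.

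Genes of NF-κB's own circuit are given first. All 5 genes of NF-κB subunits had a gained site, but with only peaks of 8-fold or more over the local background kept, 40% did, against 41.8% of all genes. Relb, the partner of p52 in the slower arm of the pathway, had 4, the highest with a tag count of 197.4, and no control peak. Nfkb2 (p100 and p52) reached 296.1 at LPS 30 min, against 78.0 in the control. Rela, which encodes p65 itself, reached 113.3, against 25.4 in the control, Rel 63.8, against 46.8, and Nfkb1 51.4, against 16.9. Of the 6 IκB genes all had a peak in both libraries and 3 had a gained site. Nfkbia (IκBα, the main cytoplasmic inhibitor) reached 193.3 at LPS 30 min, against 43.6 in the control, Nfkbib 214.3, against 48.1, Nfkbie 209.8, against 32.5, Nfkbid 152.4, against 49.4, and Bcl3 100.6, against 39.7. Over all 5772 genes with a peak in both libraries the highest peak was higher at LPS 30 min at 90.1%, so the direction at these genes was the common one.

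Among Tnfaip3 and its partners, which remove or bind ubiquitin chains to restrain the pathway, 11 of 11 genes had a gained site, with a median highest tag count of 71.7; under the rule of 8-fold over the local background it was 54.5% of them. Tnip1 led with 393.0 at LPS 30 min, against 50.1 in the control at another of its sites. Otulin (146.8), Tnip3 (107.7) and Tnfaip3 (74.7) had no control peak. Of the IKK and TAK1 kinase genes, which carry the signal to IκB, 9 of 11 had a gained site, and 36.4% under that rule. Ikbke reached 112.2 at LPS 30 min, against 24.7 in the control, Map3k14 (the kinase NIK) 90.8, against 31.2, and Tbk1 78.1, against 24.1, while Ikbkb had 61.6 and no control peak. Tab1 and Tab3 had no gained site; Tab1 had 39.4 at LPS 30 min, against 18.2 in the control, and Tab3 had 12.8, against 19.5.

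Secreted ligands came next. Of 17 TNF ligand genes 13 had a gained site. Tnf, Lta and Ltb lie side by side and shared a gained site of 84.1, while the highest peak at Tnf and Lta had 250.3 at LPS 30 min, against 54.6 in the control. Tnfsf9 (4-1BB ligand) had 162.9 at LPS 30 min, against 24.7 in the control, and Tnfsf18 (GITR ligand) 122.4, against 32.5. Of the CC chemokine genes 15 of 25 had a gained site, and of the CXC chemokine genes 10 of 14, or 28.6% under the rule of 8-fold over the local background. Ccl3 and Ccl4, which attract monocytes and T cells, shared a gained site of 225.9 and reached 242.1 at LPS 30 min, against 40.3 in the control. Ccl2, the main monocyte attractant, had 201.9 at LPS 30 min, against 27.3 in the control, and Ccl12 114.1, against 27.3. Cxcl2 and Cxcl1, neutrophil attractants, both lie near a peak of 214.7 at LPS 30 min, against 36.4 in the control, and had gained sites of 195.9 at Cxcl2 and 87.5 at Cxcl1. Cxcl16 had a gained site of 144.5 and Cxcl10 one of 100.2. Genes of colony-stimulating factors and their receptors were at 7 of 8, and Csf2 (GM-CSF) had 100.6 and no control peak. Type I interferon genes were at 8 of 18 with a low median of 17.25, of which Ifnb1, the first interferon made after LPS, had 65.3 and no control peak.

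Receptors and sensors varied more. Interleukin receptors had a gained site at 32 of 41 genes, led by Il10rb with 338.2 at LPS 30 min, against 30.6 in the control, Il2rg (175.3, no control peak) and Il12rb1 (131.0, against 26 in the control). TNF receptors had one at 19 of 28, led by Tnfrsf1b (111.8 at LPS 30 min, against 18.2 in the control) and Cd40 (111.1, no control peak). TRAF adaptors had one at 7 of 8, with Traf1 at 206.4 and no control peak. Toll-like receptors had one at 10 of 12, with Tlr6 at 88.2 and Tlr4, the LPS receptor, at 63.1, against 28.6 in the control. Tlr2 had no gained site, but its peak reached 322.4 at LPS 30 min, against 36.4 in the control. NOD-like receptors stood below the background, at 12 of 29, though Nod2 was among the highest genes of all and Nlrp3, an inflammasome sensor, had 100.2 at LPS 30 min, against 36.4 in the control. Formyl peptide receptors were at 2 of 7, but both were high: Fpr1 with 138.9 and Fpr2 with 134.0, neither with a control peak.

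Genes of cell death and survival were well covered, with 22 of 24 in the Bcl-2 family and 9 of 11 among caspases and their regulator Cflar. Mcl1 had 278.9 and no control peak, Bcl2l15 216.9 at LPS 30 min, against 87.1 in the control, and Bbc3 (the death factor Puma) 195.2 and no control peak. Casp1 and Casp4, neighbours, shared the gained site of 203.1 shown above, and Cflar (c-FLIP, which blocks caspase-8) had 149.0 and no control peak. Peaks thus stood at genes of both kinds, survival factors and death factors.

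Interferon-related families differed in coverage and in height. Guanylate-binding proteins, which attack vacuoles of pathogens, had a gained site at 9 of 10 genes with a median of 112.6, and 6 reached 100. Gbp3 had 160.3 and no control peak, and Gbp2 had 128.4 at LPS 30 min, against 14.3 in the control. Schlafen genes had a gained site at 8 of 8 with a median of 40.35, and Slfn2 had 102.8 at LPS 30 min, against 44.2 in the control. Interferon regulatory factors were at 9 of 9 and STAT factors at 7 of 7. Irf1 reached 192.9 at LPS 30 min, against 36.4 in the control. Irf3 shared a gained site of 139.6 with Bcl2l12. Oas genes were at 7 of 11, AIM2-like receptors at 8 of 13 and Ifit genes at 2 of 4, nearer to the share of all genes.

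Families of transcription factors ranged widely. All 21 AP-1 family genes had a gained site, 12 of them with no control peak, and so had all 7 C/EBP genes. Batf had 253, Atf5 152.8, Fosb 130.2 and Jun 116.4, none with a control peak. Cebpa, a factor of the myeloid lineage, had 79.6, and Cebpd, an amplifier of LPS responses, had 66.8, again with no control peak. Early growth response factors were at 2 of 4 and Kruppel-like factors at 11 of 17. Egr2 had 239.5 and no control peak, and Egr1 104.7 at LPS 30 min, against 24.7 in the control. Hox genes, which pattern the embryo, were at 20 of 39, but these rested on 12 sites, none above 22.1. Sox genes were at 6 of 19.

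Regulators of mRNA stability were at 7 of 12, near the background, but high, with a median of 85.6. Zfp36 had 326.5 and no control peak, Zc3h12a (Regnase-1, which cuts cytokine mRNAs) 236.8 at LPS 30 min, against 39.7 in the control, and Rc3h2 (Roquin-2) 123.1 and no control peak.

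Many families of general cell function stood above the background too. Aminoacyl-tRNA synthetases had a gained site at 36 of 37 genes, all but Tars, with a median of 30.95, close to that of all genes, and 64.3% of their sites lay within 1 kb of a start, against 39.5% over all genes. Sars2 had 186.5 and no control peak, Vars 121.6 at LPS 30 min, against 46.2 in the control, and Farsb 74.3 and no control peak. The BAF chromatin remodelling complex was at 19 of 20, zinc-finger and BTB proteins at 37 of 40, autophagy genes at 29 of 32, cholesterol synthesis at 20 of 22 and sorting nexins at 27 of 30. Splicing factors of the SR and hnRNP groups were at 29 of 32 and held high sites: Hnrnpa1 288.6 at LPS 30 min, against 13 in the control, and Hnrnpul1 232.7, against 16.9. Zbtb3 had 207.6 at LPS 30 min, against 15 in the control, and Gabarap, which coats autophagosomes, 147.5, against 19.5. Idi1, of the cholesterol pathway, had 174.5 and no control peak, and Snx20 176.4, against 33.8 in the control. Ribosomal protein genes were at 67 of 83 and those of respiratory complex I at 31 of 39, with 79.2% of the complex I sites within 1 kb of a start. Translation initiation factors (37 of 56), subunits of the V-ATPase (17 of 26), mitochondrial ribosomal proteins (55 of 78) and genes of the TCA cycle (15 of 21) stood lower but also above it. Histone genes were at 60 of 67, but clustered, so that these rested on 36 sites, and 37.3% of them had one under the rule of 8-fold over the local background. Of all gene lists examined, 87 had a share above that of all genes and 30 a share below it.

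**Figure D5:**
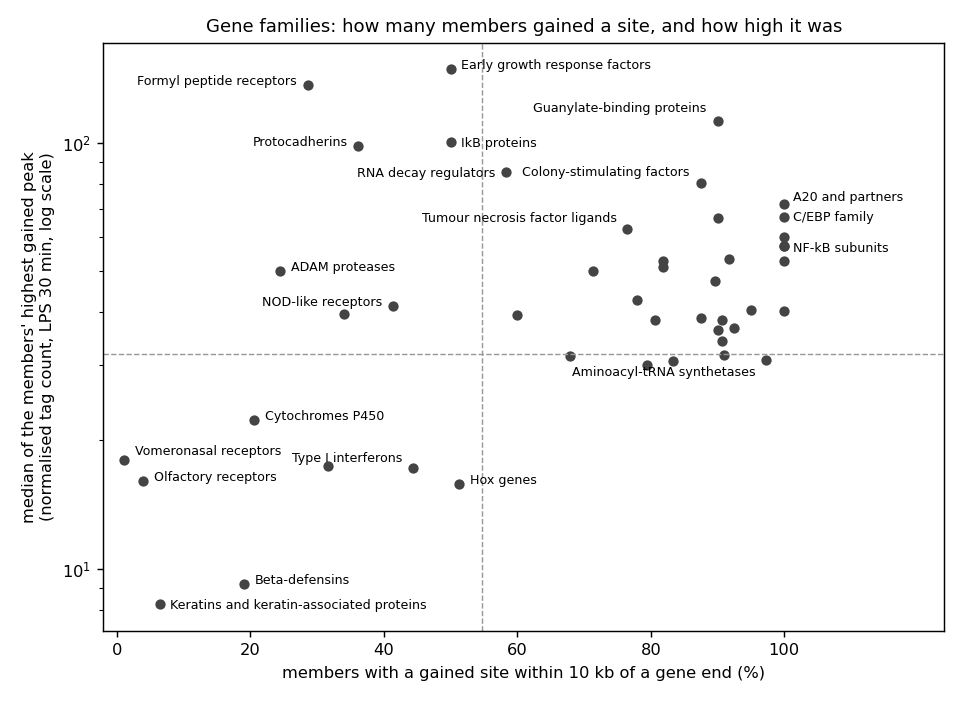
Percent of a family's genes with a gained site within 10 kb of a gene end (horizontal axis, 54.7% over all genes) against the median of the highest gained tag count over those genes (vertical log axis, 31.9 over all genes). Guanylate-binding proteins stand high at 112.6, aminoacyl-tRNA synthetases far right near the median of all genes, and olfactory receptors far left at 3.96%.

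Families of other tissues were mostly bare. Olfactory receptors had a gained site at 44 of 1110 genes (3.96%), vomeronasal receptors at 4 of 353 (1.13%), keratins and keratin-associated proteins at 7 of 109, cytochromes P450 at 20 of 97 and beta-defensins at 8 of 42. Single members stood out: Olfr111 had 183.9 at LPS 30 min, against 26.7 in the control, and the potassium channel Kcnn4, in a family at 32 of 94, had 221.8, against 30.6 in the control. Of ADAM proteases 13 of 53 had a gained site, with 141.1 at Adam17, whose site of 468.4 lay over 10 kb from the gene's ends. Protocadherins, at 25 of 69, rested on 10 sites, since clustered genes share sites. Macrophage markers had a peak at 10 of 10 genes at LPS 30 min and at 7 of 10 in the control, while neuron and hepatocyte markers had a peak at 0 of 5 genes each in both libraries. Markers of other blood cells were not bare: at LPS 30 min a peak stood at 5 of 6 dendritic cell, 5 of 7 T cell, 4 of 6 B cell, 2 of 8 neutrophil and 1 of 5 erythroid markers. In the control a peak stood at 4, 2, 2, 2 and 1 markers in the same order. The 2 neutrophil markers called in the control were other genes than the 2 called at LPS 30 min. Over all genes these shares were 58.9% at LPS 30 min and 28.4% in the control. A peak near a gene does not show that the gene is expressed, and the part of other cells was not tested. Median gene length was 950 bp in olfactory receptors and 27792 bp in aminoacyl-tRNA synthetases, and the part of length in these shares was not tested.

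The same count by the letters before the first digit of a gene symbol needed no chosen list. Of 283 such stems with at least 10 genes, 24 had a gained site at 90% or more of their genes. Pcdhga stood at 12 of 12, but on 2 sites. Among stems with at least 5 gained sites the highest were Atf (10 of 10, AP-1 and related factors), Dock (11 of 11, activators of small GTPases), Atg (17 of 18), Dhx (15 of 16, RNA helicases), Psmd (13 of 14, the proteasome cap), Zbtb (38 of 41), Lsm (12 of 13, RNA-binding rings), Bcl (22 of 24), Irf (11 of 12) and Coq (10 of 11, ubiquinone synthesis). Hoxa, Mtmr, Pdcd, Psmb and Srsf tied with Coq at 10 of 11. The Hoxa genes rested on 7 sites, none above 22.1. At 0 were 18 stems with 350 genes, the largest being Krtap with 56, Rhox with 33, Defa with 29, Prl with 26, Mup with 24 and Pcdhb with 22.

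Single genes with many gained sites were another matter than height. The most, 7 each, were at Akna, Stat6 (the factor of interleukin-4 signalling), Mbnl2, Usp3, Gmeb2 and Ptpn11 (the phosphatase SHP2), with highest tag counts between 146.8 at Akna and 33.4 at Ptpn11. Fbxl19, Ift57, Slc8b1 and Mdfic had 6 each, and are named because their highest tag counts led the genes tied at 6. In all, 38 genes had 6 or more.

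Of 1005 miRNA hairpins in RefSeq, 393 had a gained site within 10 kb, 39.1%, and 187 had a control peak. The miRNAs below, with bases 2 to 8, the seed, in capitals, come from the hairpins named next. The products let-7e-5p and let-7c-5p carry the same seed, as do miR-125a-5p and miR-6367. The seeds of miR-22-3p and miR-21a-5p match no other shown.
let-7e-5p: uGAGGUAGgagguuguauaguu
let-7c-5p: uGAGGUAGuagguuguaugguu
miR-125a-5p: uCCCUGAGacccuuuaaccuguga
miR-6367: uCCCUGAGacccugguucagga
miR-22-3p: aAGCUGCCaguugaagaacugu
miR-21a-5p: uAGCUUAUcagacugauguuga
The hairpins of let-7e and miR-125a, neighbours on chromosome 17, had the highest gained site, 262.4 at chr17:17838014-17838268, and no control peak. That site was also called in the KO control, where the gained sites given next for let-7c, Mir6367, Mir22 and Mir21a were not. The hairpin of let-7c, whose seed GAGGUAG is that of let-7e, stood with Mir99a near a gained site of 103.6. Mir6367, whose product has the seed CCCUGAG of miR-125a, had 189.9. Mir22 had 201.6, and Mir21a, the source of a miRNA abundant in activated macrophages, had 119 at 7653 bp and no control peak. The hairpins of let-7c, Mir99a, Mir6367 and Mir22 each had a control peak within 10 kb, elsewhere than the gained site. Hairpins of the immune miRNAs Mir146 and Mir155 stood farther from high sites: the shared site of 1137.6 at 10944 bp for Mir146, and a gained site of 372.7 at 107629 bp, chr16:84606384-84606638, for Mir155.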

How the data were processed

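p65 CUT&RUN peak lists of 1 LPS 30 min and 1 control WT library were compared, with no test between groups. Per the submitters' processing notes, cutadapt, Bowtie2 2.4.1 and HOMER 4.11 were used; per the file headers, peaks were called by HOMER findPeaks in factor style with the matching IgG library as background, at a false discovery rate of 0.001, at least 4-fold over IgG and 4-fold over the local background. The deposited Normalized Tag Count is a signal scaled by the authors to 10000000 tags. The findPeaks score is the authors' value per peak, and the fold over IgG and over local background are ratios made by the authors.

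From these lists, overlaps of 1 bp or more, ratios at mutually longest overlaps, and links of peak centres within 10 kb of either end of an mm10 protein-coding gene were computed in Python 3.11.15 with pandas 2.3.3, NumPy 2.4.6 and SciPy 1.17.1, and drawn with matplotlib 3.10.9. Intervals are exact 95% intervals for counting error. Depth was 13.3 M tags at LPS 30 min and 7.69 M in the control. The steps were tested on simulated data. Promoters and miRNAs are from RefSeq, GRCm38.p6; the promoter table held starts of 17492 genes.

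Genes were named by rule: genes linked to the 20 highest gained and 12 highest lost sites, the 10 highest and 10 lowest ratios among shared pairs of at least 20 tags, the 5 highest sums, the 10 genes with most gained sites, and up to 4 members per family by highest gained tag count. Members given beside these for their role, and those said to be, were chosen after their values were seen. The members and lists were chosen with earlier results of these data known. One of the 20 highest gained sites is not reported here by gene.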

Additional observations from a re-analysis of the deposited data

How the results depend on the processing

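With 1 library a group, variation between cultures could not be measured, absence from a list is not absence of binding, and the lists differ in depth, width and threshold. When peaks under 8-fold over the local background were left out of both lists, 17466 sites were gained, 1899 shared and 3161 lost, and 755 genes were no longer called. With the same lowest score in both lists, a cut not scaled to depth and so stricter in the control, 778 sites were shared and 289 lost. Linking within 1 kb left 6680 genes with a gained site. The median log2 ratio at shared sites was 1.38 per bp, 1.43 by score and 0.29 by fold over IgG; the site at Asap1 turned to 1.64 by fold over IgG. When the LPS 30 min score was scaled to the control depth and held to the control threshold, an alternative chosen after seeing the data, the median was 0.93, and 25.1% of gained sites fell under that threshold. The cause of these shifts was not tested. All 20 highest gained sites passed the 3 stricter calling rules of the plan, and 10 to 12 of the 12 highest lost sites passed each. Those rules only remove peaks, so a gained or lost site that passes keeps its class, and this says nothing of how firm the classes are. Of the 48 lists chosen for description, 31 had a share above that of all genes, of which 27 to 31 stayed above it, and 17 a share below it, of which 15 to 17 stayed below. No paired analysis was possible because each group had 1 library.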
